A study of Mus musculus with 3530 samples.

Results

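Reporter-read neurons are cells from medial prefrontal cortex of mice, sequenced one by one, that were selected on 1 measured value, a count of at least 1 for the TdTom-transgene row, whatever gate (pos or neg) their name gives. Of 3530 cells in the series, 1254 of the compared conditions met this rule, 836 of them from 5 Fear-Recall animals and 418 from 5 Context-Only animals. The other 1000 cells of both conditions held no reporter read. At the edge of the rule, 32 Fear-Recall cells (3.83%) and 30 Context-Only cells (7.18%) held exactly 1 reporter read, and the median was 26.5 and 16 reads. These reporter values chose the cells and are given as a description.

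All animals were TRAP2;Ai14 mice. TRAP2 places a drug-dependent recombinase under the activity-regulated Fos gene, and Ai14 is a tdTomato gene that stays silent until that recombinase acts, so a neuron that was active while the drug was present keeps its mark. Fear-Recall and Context-Only are the labels' names for arms of a contextual fear conditioning experiment, and both arms carried both alleles. The labels give no age, strain, training schedule, drug timing or interval to tissue collection. Tissue was dissociated with papain and single cells were prepared by Smart-seq2, a method that covers whole transcripts, with 1 library for each cell. The replicate was the mouse, numbered 2, 3, 4, 5 and 5b in Context-Only and 1 to 5 in Fear-Recall, and the animals share their numbers across conditions. The labels call 5b another mouse numbered 5 and say no more, so it was taken as a further partner of Fear-Recall mouse 5; were its number wrong, the blocked fold changes would differ. Nothing in the labels says what a shared number marks. Of the reporter-read cells, 662 of Fear-Recall and 325 of Context-Only were labelled pos, 28 and 17 neg, and all others, from mice 1, 5 and 5b, had no gate.

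Immediate early genes are the first genes that neuronal activity switches on. Calcium entry and kinase signalling act on factors already present, such as CREB and the serum response factor, so that transcripts of Fos and Jun family members appear without new protein synthesis and fade within hours. Their products bind the control regions of later genes that alter synapses, and some, such as the phosphatase Dusp1, limit the signal that induced them. In prefrontal cortex these genes are used to mark cells engaged by recent experience, whereas a recombined reporter marks cells active in an earlier window. The comparison asks how neurons that carry the earlier mark differ between animals labelled Fear-Recall and Context-Only.

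Btg2, Dusp1 and Plk2, members of the immediate early list, held the cyclic AMP response element TGACGTCA, to which CREB binds, in a window from 250 bases before to 50 bases after the RefSeq gene start. Their sequences are shown because these genes were among the list's members of smallest p below. They come from RefSeq on GRCm38.p6 and read 5′ to 3′, with the element in capitals.
Btg2, chr1:134079106-134079405 (minus strand): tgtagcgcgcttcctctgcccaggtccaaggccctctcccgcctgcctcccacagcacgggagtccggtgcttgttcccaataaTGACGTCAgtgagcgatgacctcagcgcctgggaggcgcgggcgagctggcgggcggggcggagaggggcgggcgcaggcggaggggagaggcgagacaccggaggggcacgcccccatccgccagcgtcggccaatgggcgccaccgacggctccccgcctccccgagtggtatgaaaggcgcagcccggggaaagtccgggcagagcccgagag
Dusp1, chr17:26508423-26508722 (minus strand): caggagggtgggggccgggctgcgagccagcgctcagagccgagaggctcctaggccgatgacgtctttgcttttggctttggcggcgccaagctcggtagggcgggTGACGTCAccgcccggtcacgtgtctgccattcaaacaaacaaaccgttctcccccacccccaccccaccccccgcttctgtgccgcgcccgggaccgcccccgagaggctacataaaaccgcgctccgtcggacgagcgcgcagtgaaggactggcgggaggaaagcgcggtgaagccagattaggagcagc
Plk2, chr13:110394794-110395093 (plus strand): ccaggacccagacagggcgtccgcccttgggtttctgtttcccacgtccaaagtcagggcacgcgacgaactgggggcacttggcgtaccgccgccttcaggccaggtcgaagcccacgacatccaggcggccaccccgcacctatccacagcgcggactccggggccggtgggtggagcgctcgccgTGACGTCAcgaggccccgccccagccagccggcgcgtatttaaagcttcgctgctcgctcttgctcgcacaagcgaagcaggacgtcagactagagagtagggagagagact
The element started at position -166 in Btg2, -143 in Dusp1 and -62 in Plk2, counted from the gene start. Of 27025 promoter windows of this length, 1 per gene, 1.88% held it on either strand. Among the immediate early list, 31 of 40 genes had a window and 4 held it (12.9%), the fourth being Scg2, a granin. The windows of Jun, Junb and Sgk1 held neither it, nor the AP-1 motif TGANTCA (7.93% of all windows), nor a CArG box (1.57%), and the element TGACGTCA holds no match to either of the other motifs. These matches are a description of the letters in 1 window per gene.

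Sums of raw counts over the reporter-read cells of each animal held 30 to 327 cells and 37509255 to 228676189 counts. The excitatory list (such as Slc17a7 and Camk2a) summed to 1677 to 3010 CPM in Fear-Recall and 1797 to 3206 CPM in Context-Only. The inhibitory list (such as Gad1 and Gad2) summed to 1215 to 2322 CPM and 511 to 1639 CPM, lowest in Context-Only mouse 2. In the fit of all reporter-read neurons 9 of its 11 genes were above 0, with 0 at an unadjusted p under 0.05. Median genes per reporter-read cell ranged from 6075 to 8497 in Fear-Recall and from 5338 to 7408 in Context-Only. Context-Only mouse 2 stood apart, with 14 of its 56 cells in 1 cluster that held, of the other compared reporter-read cells, 5 of Fear-Recall mouse 2 and 1 of mouse 3, and values without it are given where results rest on it. Of the 10 astrocyte markers, summing to 210.5 to 612 CPM in Fear-Recall and 528 to 582 CPM in Context-Only, Slc1a2 (median 306 and 301 CPM) and Aldoc (190 and 214.7 CPM) made up most, while Aqp4 and Gfap had medians under 1 CPM. The 10 microglia markers summed to 24.9 to 77.6 CPM in Fear-Recall and 25.1 to 50.7 CPM in Context-Only, and the 10 endothelial and mural markers to 10.9 to 22.1 and 6.13 to 18.4 CPM. The oligodendrocyte list summed to 49.2 to 110 CPM in Fear-Recall and 110 to 484 CPM in Context-Only, mostly as Mbp (median 57.2 and 101 CPM), with Opalin at 0 in 5 and 4 animals and Mog in 3 and 4. The precursor list summed to 0.568 to 23.8 and 1.58 to 4.16 CPM.

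Cells were classed as excitatory-like or inhibitory-like by their cluster. The inhibitory share of reporter-read neurons was 32.7%, 30.6%, 33.9%, 26.3% and 40% in Fear-Recall mice 1 to 5. In Context-Only mice 2, 3, 4, 5 and 5b it was 26.8%, 39.4%, 26.1%, 46.7% and 26.1%. Both groups spanned similar ranges, and the mean of 32.7% ± 5.0 (SD, n = 5) differed from 33.0% ± 9.5 (SD, n = 5) by less than the spread between animals (exact two-sided permutation test, p = 0.952, smallest possible 0.00794).

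No gene passed edgeR's quasi-likelihood test at a Benjamini-Hochberg adjusted p of 0.05 in reporter-read neurons as a whole (0 of 20431 tested, 0%). The smallest adjusted p was 0.839. At an unadjusted p under 0.05, 565 genes (2.77%) were higher in Fear-Recall and 590 (2.89%) were lower, 1155 (5.65%) in all. DESeq2 with the same design called 69 genes (0.338%), 56 higher (0.274%) and 13 lower (0.0636%). The model removed differences between mouse numbers, so its fold changes rest on numbers 2 to 5, and Fear-Recall mouse 1, with no Context-Only partner, enters only through scaling and the filter on low counts. Genes are therefore named below by smallest p and did not pass edgeR's test. All fold changes are of Fear-Recall over Context-Only.

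Sgk1, a kinase induced by glucocorticoids and by activity, had the smallest p. Its level was 44.2, 44.6, 69.3, 94.6 and 115.1 CPM in Fear-Recall mice 1 to 5, and 20.9, 38.9, 52.7, 65.9 and 52.9 CPM in Context-Only mice 2, 3, 4, 5 and 5b. The groups overlapped, but each Fear-Recall animal of numbers 2 to 5 lay above its Context-Only partner or partners. The log2 fold change was 0.93 (SE 0.15), with an edgeR adjusted p of 0.839 and a DESeq2 adjusted p of 8.98e-05.

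Jun, a subunit of the AP-1 transcription factor, stood at 139, 157.8, 189.5, 272.05 and 432 CPM in Fear-Recall mice 1 to 5. In Context-Only mice 2, 3, 4, 5 and 5b it stood at 78.0, 153.7, 113, 183.99 and 193.5 CPM. Mice 4 and 5 of Fear-Recall exceeded every Context-Only animal, mice 1 to 3 did not, and the log2 fold change was 0.97 (SE 0.17).

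Plk2, an activity-induced kinase of dendritic spines, measured 306, 288.5, 339, 487 and 419 CPM in Fear-Recall. It measured 139, 176.2, 323, 275.9 and 317 CPM in Context-Only. Of the Fear-Recall animals, 3 were above the highest Context-Only animal, and the log2 fold change was 0.75 (SE 0.14). Cbln4, a secreted organizer of synapses, was at 23.1, 50.4, 58.2, 59.9 and 47.1 CPM in Fear-Recall and 20.5, 41.3, 23.99, 14.4 and 11.8 CPM in Context-Only. Fear-Recall mouse 1 lay among the Context-Only animals and the other 4 lay above them all, with a log2 fold change of 1.30 (SE 0.25). The highest single cell held 5.95% to 25.1% of these Fear-Recall sums and 7.77% to 52.8% of the Context-Only sums. Cbln4 was also a leading gene of an excitatory cluster whose best-matching marker list was the upper-layer one. Clusters matched to that list held 8.13% of Fear-Recall and 8.61% of Context-Only reporter-read cells, pooled over animals. The part of the excitatory mix in the Cbln4 values was not tested.

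Another 4 genes completed the upper set. They were Calcoco1 (log2 fold change 0.86), an autophagy receptor, Mpp3 (0.83), a membrane scaffold of the MAGUK family, the actin-branch stabilizer cortactin, Cttn (0.65), and the RNA-binding protein Rbm18 (0.78). In each, all Fear-Recall animals of numbers 2 to 5 were above the mean of their Context-Only partners. DESeq2 called all 8 of these upper genes.

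**Figure D1:**
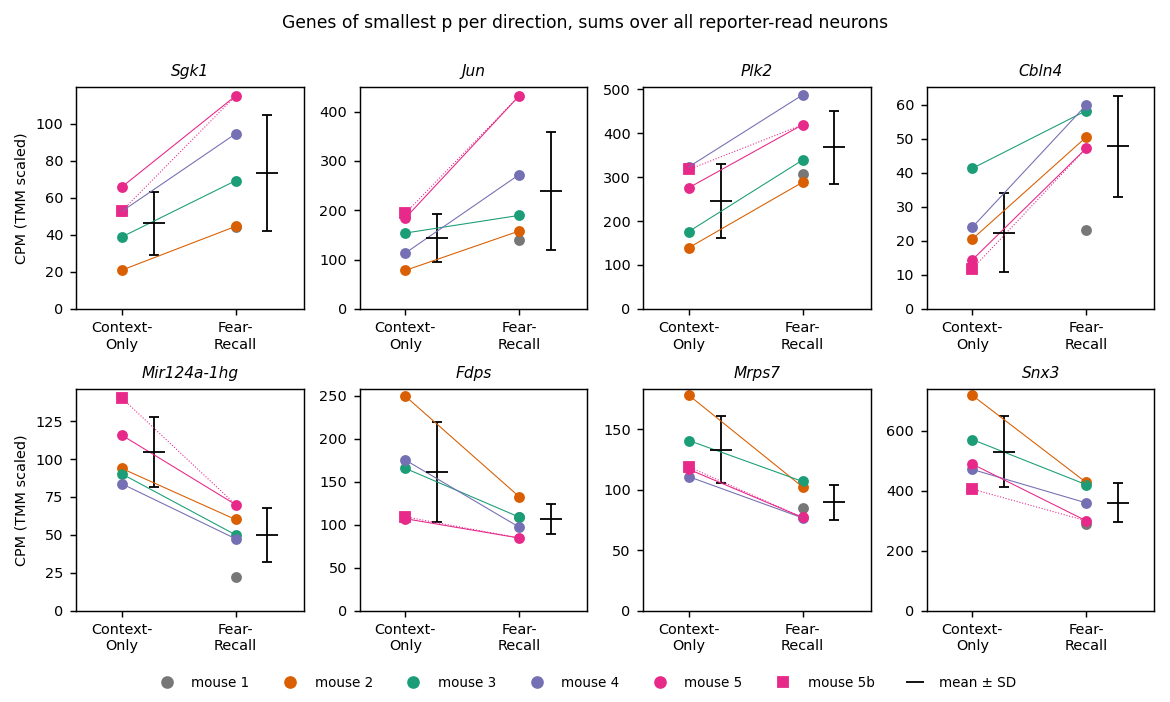
CPM per animal (vertical axis, linear from 0) in sums over all reporter-read neurons for the 4 genes of smallest p in each direction; points are animals coloured by mouse number, lines join animals of 1 number, and bars are mean ± SD (n = 5 per condition). Lines of all numbers run upward in the upper row and downward in the lower row, and only Mir124a-1hg and Mrps7 show groups that do not overlap.

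Among genes lower in Fear-Recall, Mir124a-1hg, the host transcript of the neuronal microRNA miR-124 (chromosome 14, 64587331 to 64593961, plus strand, GRCm38), had the smallest p. It was at 22.01, 60.1, 50.01, 47.4 and 70.0 CPM in Fear-Recall mice 1 to 5 and at 93.8, 90.2, 83.7, 116 and 140.3 CPM in Context-Only. The groups did not overlap, as for 93 genes (0.455%) that lay wholly lower and 84 (0.411%) wholly higher among all genes tested. Its log2 fold change was -0.80 (SE 0.14), and DESeq2 gave an adjusted p of 0.000192.

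Others of smallest p serve several functions of the cell. Fdps, an enzyme that makes the isoprenoid precursor of cholesterol, had a mean of 106 ± 17.8 CPM in Fear-Recall and 161 ± 58.5 CPM in Context-Only (SD, n = 5 each), and its groups overlapped. The mitochondrial ribosome subunits Mrps7 and Mrps24 and the haem synthesis enzyme Urod had groups without overlap, with log2 fold changes of -0.59, -0.81 and -0.80. Snx3, a sorting nexin of endosomes, and Tmem91 overlapped, at -0.54 and -0.75. Of the lower genes given here, DESeq2 called all but Snx3 and Mrps24, which it left above 0.05.

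The same genes were measured in the reporter-read cells of the other conditions, as a description in sums scaled over all 4 conditions. Mir124a-1hg stood at 49.4 ± 17.9 CPM in Fear-Recall (SD, n = 5), 103 ± 22.4 in Context-Only (n = 5), 77.4 ± 40.8 in Fear-Only (n = 4) and 103.5 ± 25.4 in Homecage (n = 3). Cbln4 was at 47.2 ± 14.8, 22.01 ± 11.4, 25.5 ± 21.4 and 9.17 ± 7.11 CPM in the same order. Jun was at 235.1 ± 117.8, 141.3 ± 46.4, 129.5 ± 42.0 and 166.8 ± 60.4 CPM. For Cbln4 the Fear-Recall mean was the highest and for Mir124a-1hg the lowest of the 4, with spreads that overlapped those of Fear-Only.

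Immediate early genes as a list leaned upward. All 40 listed genes passed the filter on low counts, 33 were above 0, with a median of 0.28 for their log2 fold changes, against 0.07 over all genes tested and -0.04 over the 5216 genes of mean log2 CPM of at least 5. At an unadjusted p under 0.05, 7 were higher and 1, the growth regulator Rheb, was lower, against 2.77% and 2.89% of all genes tested. Beside Jun and Plk2, the higher ones were the phosphatases Dusp6 (log2 fold change 0.92) and Dusp1 (0.75), the AP-1 subunit Junb (0.70), the nuclear factor Ier2 (0.60) and the prostaglandin synthase Ptgs2 (1.16). DESeq2 called 3 of the 40, Jun, Plk2 and Dusp6, against 0.338% of all genes. Of other well-known members, Fos was at 0.15 (SE 0.14), Nr4a1 at -0.00 (SE 0.39) and Egr1 at -0.21 (SE 0.16). Arc was at 0.77 (SE 0.43), above its partners in 4 of 4 mouse numbers, and did not pass an unadjusted p of 0.05.

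The list's lean varied between mouse numbers. Its median difference was -0.08 in number 2, 0.17 in number 3, 0.68 in number 4 and 0.36 in number 5, on the log2(CPM + 1) scale. Leaving out Context-Only mouse 4 took the fitted median to 0.10, and leaving out Context-Only mouse 2 took it to 0.45. The score of the list, the mean log2(CPM + 1), was 5.004, 5.62, 5.88, 6.14 and 6.08 in Fear-Recall mice 1 to 5 and 5.62, 5.70, 5.43, 5.53 and 5.97 in Context-Only. Mouse 1 of Fear-Recall was the lowest of all animals and mice 4 and 5 the highest. The means of 5.75 ± 0.46 and 5.65 ± 0.20 (SD, n = 5 each) did not differ beyond the spread between animals (exact two-sided permutation test, p = 0.706). Papain dissociation itself induces some of these genes, and 4 of the 12 dissociation stress genes (Fos, Jun, Junb and Ier2) are also in this list. Among the 12, 8 were above 0 with a median of 0.65. At an unadjusted p under 0.05, 3 were higher and 0 lower (2.77% and 2.89% of all genes tested). DESeq2 called 2 of the 12 higher, Jun and Zfp36 (0.274% of all genes). Their summed level was 2283 to 4681 CPM in Fear-Recall and 2931 to 4386 CPM in Context-Only. Much of that sum was Hsp90aa1 (median 1820 and 2585 CPM), so it says little about the other members. The part of dissociation in the list's lean was not tested.

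In inhibitory reporter-read neurons the median of the list was larger in value, while the share of its genes above 0 was not. Of 17350 genes, edgeR called 0 (0%), 3.6% had an unadjusted p under 0.05, 392 higher (2.26%) and 233 lower (1.34%), and DESeq2 called 0.68%, 102 higher (0.588%) and 16 lower (0.0922%). Of the immediate early genes, 39 passed the filter and 28 of these were above 0. Their log2 fold changes had a median of 1.06, against 0.14 over all genes and -0.02 over the 5151 genes of mean log2 CPM of at least 5. At an unadjusted p under 0.05, 11 of the 39 were higher and 0 lower. DESeq2 called 5 of them, Jun, Junb, Dusp1, Btg2 and Cyr61. Leave-one-animal-out medians ran from 0.67 to 1.22, and within mouse numbers 2 to 5 the median difference was 0.41, 0.30, 0.45 and 0.77.

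Dissociation stress genes and interneuron markers also differed in value in these cells. The 12 dissociation stress genes had 7 above 0 (median 0.77), 3 of them higher at an unadjusted p under 0.05, and DESeq2 called Jun and Junb, which are in both lists. Their mean log2(CPM + 1) per animal was 5.51 to 5.97 in Fear-Recall and 4.51 to 5.68 in Context-Only, so the groups overlapped. The median was 0.30 without Fear-Recall mouse 1, where Hspa1b no longer passed the filter. Of 6 Sncg Cck interneuron markers 5 were below 0 (median -0.58), with Sncg (-2.05) and the serotonin receptor Htr3a (-0.55) lower at that p, and their mean log2(CPM + 1) was 6.60 to 7.54 in Fear-Recall and 7.32 to 8.61 in Context-Only. Medians of the other interneuron marker lists were -0.26 (Vip), 0.27 (Sst), 0.41 (Pvalb) and 0.19 (Ndnf Lamp5). The part of dissociation or of interneuron make-up in the immediate early values was not tested.

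Junb stood at 369.9, 287.5, 447, 452 and 689 CPM in inhibitory neurons of Fear-Recall mice 1 to 5 and at 210.7, 186, 143.001, 268 and 197 CPM in Context-Only mice 2, 3, 4, 5 and 5b. All Fear-Recall animals lay above all Context-Only animals, as for 122 genes (0.703%) of this fit, against 39 (0.225%) wholly below. The log2 fold change was 1.27 (SE 0.23), with an edgeR adjusted p of 1 and a DESeq2 adjusted p of 0.0102.

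Jun was at 269, 210.3, 340.3, 389.5 and 525 CPM against 105, 183.03, 191, 132.5 and 91.6 CPM, again without overlap, with a log2 fold change of 1.38 (SE 0.27). Btg2, which restrains proliferation and promotes mRNA decay, was at 71.9, 116, 113, 107 and 222 CPM against 22.1, 33.1, 70.6, 44.99 and 29.2 CPM. The lowest Fear-Recall animal, mouse 1, only just exceeded Context-Only mouse 4, and the log2 fold change was 1.92 (SE 0.38).

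Dusp1, which dephosphorylates MAP kinases, was at 268, 408, 361, 769.6 and 790.1 CPM against 142.7, 157.4, 326, 146.9 and 55.3 CPM. Here Fear-Recall mouse 1 was below Context-Only mouse 4, and the log2 fold change was 1.86 (SE 0.38). Sgk1 was at 47.9, 60.6, 67.0, 109.5 and 145.7 CPM against 13.2, 36.1, 39.8, 33.4 and 19.1 CPM, without overlap, with a log2 fold change of 1.83 (SE 0.39).

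These sums came from 12 to 111 cells, and 1 cell could hold much of them. The highest single cell held 26.4% to 85.99% of the Btg2 counts in Context-Only animals and 7.91% to 49.02% in Fear-Recall animals. The share of inhibitory cells with a Btg2 count was 52.3% ± 18.9 in Fear-Recall and 28.1% ± 11.7 in Context-Only (SD, n = 5 each). After every cell was thinned to 100000 counts it was 48.5% ± 18.3 and 25.0% ± 8.67. For Sgk1 the thinned shares were 56.3% ± 11.9 and 36.3% ± 15.3, for Dusp1 71.7% ± 16.1 and 51.6% ± 13.1, and for Junb 88.6% ± 9.04 and 78.7% ± 5.02. Each share had the direction of its CPM.

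**Figure D2:**
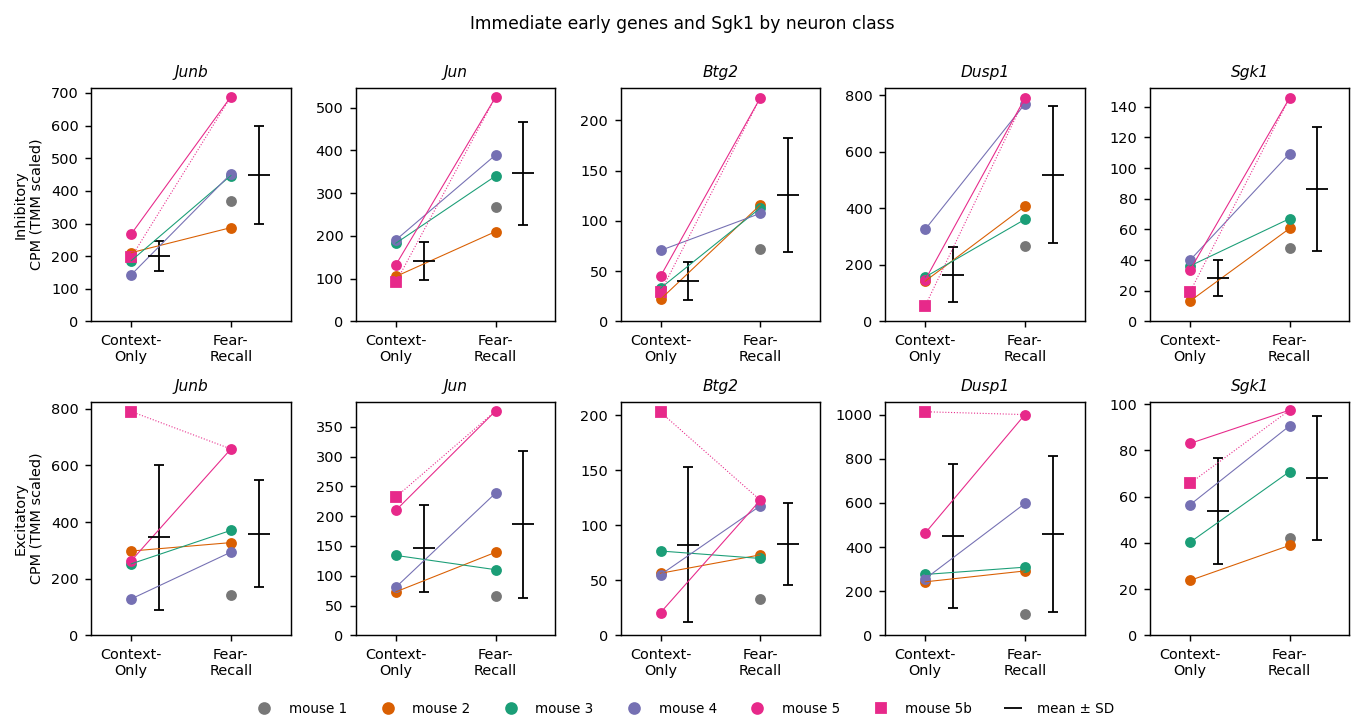
CPM per animal (vertical axes, linear from 0) of 5 genes in sums over inhibitory (upper row) and excitatory (lower row) reporter-read neurons; colours are mouse numbers, lines join animals of 1 number, and bars are mean ± SD (n = 5 per condition). In the upper row Junb, Jun, Btg2 and Sgk1 have no overlap between conditions, and in the lower row every gene overlaps, with Context-Only mouse 5b highest for Junb, Btg2 and Dusp1.

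Excitatory reporter-read neurons gave smaller values for the same genes. Of 19692 genes, edgeR called 0 (0%), 869 (4.41%) had an unadjusted p under 0.05, 469 higher (2.38%) and 400 lower (2.03%), and DESeq2 called 27 (0.137%), 20 higher (0.102%) and 7 lower (0.0355%). Here 33 of 40 immediate early genes were above 0 (median 0.23) and 4 were higher at an unadjusted p under 0.05. DESeq2 called 1 of the 40, Plk2. Leave-one-animal-out medians ran from 0.035 (without Fear-Recall mouse 4) to 0.36 (without Context-Only mouse 2). Btg2 was at 32.9, 73.1, 69.9, 117.7 and 122.8 CPM in Fear-Recall and 56.4, 76.6, 55.1, 20.6 and 202.9 CPM in Context-Only, where mouse 5b was the highest of all 10 animals. Its log2 fold change was 0.35 (SE 0.56), and those of Junb and Dusp1 were 0.53 (SE 0.32) and 0.51 (SE 0.26).

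The difference between the classes was itself fitted, with animals as blocks. edgeR called 0 of 18587 genes (0%), 598 (3.22%) had an unadjusted p under 0.05, 383 of them larger in inhibitory neurons (2.06%) and 1.16% smaller, and DESeq2 called 49 (0.264%). For the immediate early list the median of this difference was 0.68, with 29 of 40 above 0 and 7 larger in inhibitory neurons at an unadjusted p under 0.05, against a median of 0.10 over all genes. The difference was 1.21 (SE 0.35) for Sgk1, 1.73 (SE 0.70) for Dusp1, 1.39 (SE 0.64) for Btg2 and 0.94 (SE 0.41) for Junb on the log2 scale. None of these 4 passed (edgeR adjusted p = 1 for each), so a difference between classes was not shown for any of them. DESeq2 called 1 of the 40 list members, Cyr61, at 4.42 (SE 1.34, DESeq2 adjusted p = 0.00812), which edgeR did not call.

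**Figure D3:**
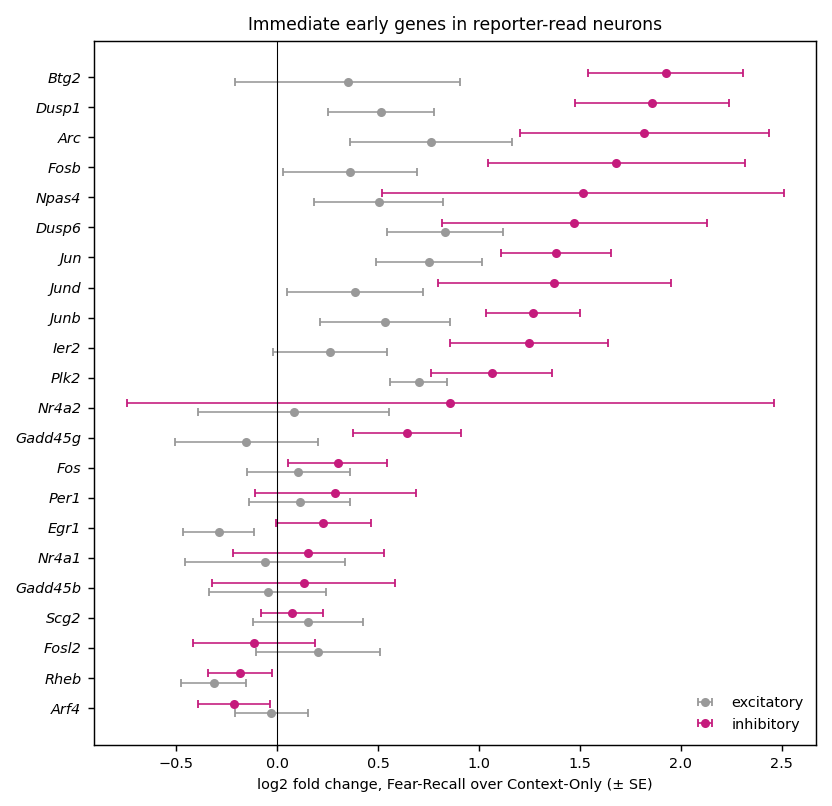
Fitted log2 fold change of Fear-Recall over Context-Only (horizontal axis, bars ± SE) for the 22 immediate early genes of mean log2 CPM of at least 5 in inhibitory neurons, in inhibitory (purple) and excitatory (grey) reporter-read neurons. Btg2, Dusp1 and Arc have the highest inhibitory values, 1.92, 1.86 and 1.82, and those of Fos and Egr1 are 0.30 and 0.23.

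Other genes of smallest p in excitatory neurons were the fatty acid elongase Elovl4 (log2 fold change 0.70, DESeq2 adjusted p = 0.0179), the lysophospholipase Enpp2 (0.75), the phosphoinositide phosphatase Inpp5f (0.76) and the AAA ATPase Atad1 (0.66), besides Plk2 and Cttn. Elovl4 was at 97.3, 93.2, 99.01, 105 and 106 CPM in Fear-Recall and 50.6, 69.1, 58.9, 66.7 and 73.4 CPM in Context-Only. Its groups did not overlap, as for 88 genes (0.447%) wholly higher and 84 (0.427%) wholly lower. On the lower side stood the sigma-2 receptor gene Tmem97 (-0.83), Ufc1 of the ufmylation pathway (-0.70) and Thap7 (-0.83), beside Tmem91, Urod and Mir124a-1hg. In inhibitory neurons the lower set was Fxyd6, a modulator of the sodium pump (-0.46), Rtn1, a reticulon (-0.51), the proteasome subunit Psmb4 (-0.61), Gng3, a G protein subunit (-0.62), Tmem50a (-0.62) and the proton pump subunit Atp6v0b (-0.63). Gng3 and Atp6v0b, and Ufc1 in excitatory neurons, were highest in Context-Only mouse 2 and stood at -0.47, -0.50 and -0.57 without it. Fxyd6 was at 1552 to 2280 CPM in Fear-Recall and 2606 to 2854 CPM in Context-Only, without overlap. In these cells the upper set also held Ndufs1, a subunit of respiratory complex I, at 160 to 242 CPM in Fear-Recall and 73.7 to 137 CPM in Context-Only (log2 fold change 0.94, DESeq2 adjusted p = 0.00907).

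Genes for protein synthesis, protein breakdown and respiration leaned downward in all reporter-read neurons. Over all genes tested, 2.89% were lower and 2.77% higher at an unadjusted p under 0.05. Of 79 cytosolic ribosomal protein genes 77 were below 0 (median log2 fold change -0.34), and 17 were lower at an unadjusted p under 0.05 with 0 higher. Of 74 nuclear oxidative phosphorylation genes 71 were below 0 (median -0.38), with 20 lower and 2 higher at that p. Of 31 proteasome subunit genes 29 were below 0 (median -0.35), with 11 lower and 0 higher. The 13 mitochondrially encoded genes had a median of 0.09. Psmc2, a proteasome ATPase, was at 208, 311, 311, 283 and 253 CPM in Fear-Recall and 458, 393, 347, 382 and 343 CPM in Context-Only, without overlap. Ndufs1 and the other complex I gene of smallest p, Ndufa10, went opposite ways, at 0.71 (SE 0.19) and -0.48 (SE 0.13).

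The lean was largest in mouse number 2. Its median difference was -0.93 for the ribosomal, -1.05 for the respiratory and -0.63 for the proteasome list, against -0.09 to -0.20, -0.11 to -0.24 and -0.17 to -0.35 in numbers 3 to 5. Without Context-Only mouse 2 the fitted medians were -0.16, -0.18 and -0.23, with 71 of 79, 68 of 74 and 29 of 31 genes below 0. Abundant genes as a whole leaned the same way, with 2899 below and 2317 above 0 among the 5216 genes of mean log2 CPM of at least 5, and 506 of them lower at an unadjusted p under 0.05. The part of cell quality or depth in this lean was not tested. For the same lists the fitted difference between reporter-read and reporter-free neurons in the condition effect had medians of -0.02, -0.02 and -0.06.

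**Figure D4:**
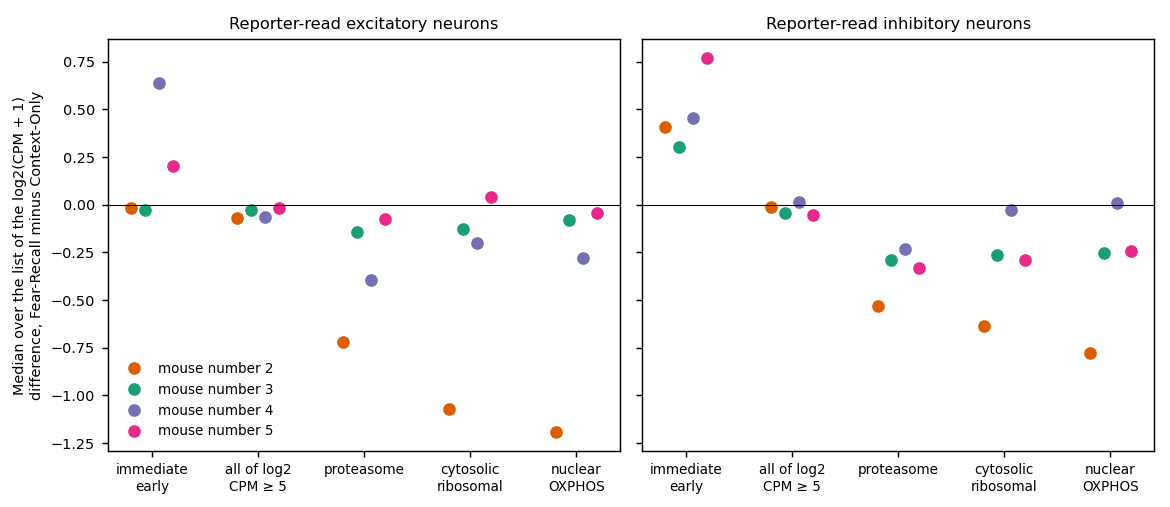
Median over each list of the log2(CPM + 1) difference of Fear-Recall minus Context-Only (vertical axis) within mouse numbers 2 to 5, in excitatory (left) and inhibitory (right) reporter-read neurons. In inhibitory neurons the immediate early medians lie at 0.30 to 0.77, and for the ribosomal and respiratory lists number 2 is the lowest in both classes.

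Synaptic and nuclear lists gave smaller shifts. Over all genes tested, 2.77% were higher and 2.89% lower at an unadjusted p under 0.05. Of the synaptic adhesion genes 27 of 38 were above 0 (median 0.18), and 5 were higher at an unadjusted p under 0.05, among them Cbln4, Lrrtm3 (0.58), the postsynaptic adhesion protein neuroligin 1, Nlgn1 (0.42), and the neurexin ligand Nxph1 (1.21, and 0.58 without Fear-Recall mouse 5). Nlgn1 was at 87.3, 87.4, 66.8, 76.6 and 72.7 CPM in Fear-Recall and 55.1, 56.6, 62.4, 50.4 and 55.8 CPM in Context-Only, and the groups did not overlap. Of 23 DNA methylation and chromatin genes 15 were above 0 (median 0.23) and 3 were higher at that p, all histone deacetylases. Hdac11 was at 141.6, 122.98, 140.4, 120.1 and 147.2 CPM against 101, 73.1, 63.8, 98.4 and 102 CPM, without overlap (log2 fold change 0.66, SE 0.16), and Hdac5 and Hdac2 were at 0.75 and 0.40. Creb3, a membrane-bound relative of CREB, was at 144.01 ± 20.3 CPM in Fear-Recall and 210.6 ± 21.6 CPM in Context-Only (SD, n = 5 each), without overlap.

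Among 30 neuropeptide and granin genes the median was 0.13, with 3 higher and 2 lower at an unadjusted p under 0.05. Over all genes tested these shares were 2.77% and 2.89%. Adcyap1, which encodes the neuropeptide PACAP, was at 40.2, 30.1, 27.6, 33.7 and 38.3 CPM in Fear-Recall and 8.34, 17.9, 21.4, 15.8 and 11.2 CPM in Context-Only. All Fear-Recall animals exceeded all Context-Only animals, the log2 fold change was 1.19 (SE 0.29), and DESeq2 gave an adjusted p of 0.0353. Adcyap1 was also a leading gene of an excitatory cluster whose best-matching marker list was the middle-layer one. Clusters matched to that list held 29.5% of Fear-Recall and 23.9% of Context-Only reporter-read cells, pooled over animals. The part of the excitatory mix in the Adcyap1 values was not tested. Tac2, a tachykinin of interneurons, was at 480.2 ± 200.4 and 650.4 ± 234 CPM (log2 fold change -0.62, and -0.40 without Fear-Recall mouse 4). Of 15 glucocorticoid receptor and stress-hormone target genes 14 passed the filter and 10 were above 0 (median 0.23), with 2 higher at an unadjusted p under 0.05, Sgk1 and the zinc finger repressor Zbtb16 (0.52). In inhibitory neurons 11 of 14 were above 0 (median 0.46). Against 0.07 over all genes, the medians of other lists were as follows, with synaptic vesicle genes at 0.08 (38 of 69 above 0), glutamate receptors and scaffolds at 0.09 (29 of 42), sodium, calcium and HCN channels at 0.04 (15 of 27), GABA genes at 0.17 (17 of 25), potassium channels at 0.10 (27 of 40), Rab GTPases at -0.01 (22 of 44), chaperones at 0.03 (21 of 36) and cholesterol genes at -0.05 (12 of 25). Microtubule and axon transport genes had a median of -0.13, with 7 lower and 0 higher at an unadjusted p under 0.05, led by the stathmin Stmn1 (-0.48).

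Whether the condition difference was particular to reporter-read neurons was tested against reporter-free neurons of the same animals. edgeR called 0 of 19956 genes (0%), 699 (3.5%) had an unadjusted p under 0.05, 438 positive (2.19%) and 1.31% negative, and DESeq2 called 47 (0.236%). Positive values mean a larger reporter-read minus reporter-free difference in Fear-Recall. Rgs16, a brake on G protein signalling, was at 88.4 ± 14.4 CPM in reporter-read and 30.7 ± 14.5 CPM in reporter-free neurons of Fear-Recall, against 74.4 ± 33.4 and 61.6 ± 24.5 CPM in Context-Only (SD, n = 5 each), with an interaction of 1.43 (SE 0.36) on the log2 scale. The glycerol phosphate dehydrogenase Gpd1 (0.85), the protease Htra1 (1.72), acetylcholinesterase, Ache (0.66), the zinc finger gene Zfp612 (0.64) and the kinase Snrk (0.93) also led this side. DESeq2 called Rgs16 and Htra1 among them.

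On the negative side stood Crym, a thyroid hormone binding protein (-0.72), the sodium channel Scn2a (-0.50), the mitochondrial carrier Slc25a23 (-0.71), Psd3 (-0.55), the chromatin remodeller Smarca1 (-1.08) and the vesicle protein Sv2b (-0.53). Crym was at 328 ± 52.5 CPM in reporter-read and 448 ± 81.3 CPM in reporter-free neurons of Fear-Recall, against 424 ± 82.5 and 354 ± 87.6 CPM in Context-Only (SD, n = 5 each). The class mix moved with this comparison. Reporter-free cells were 24.1% ± 6.54 inhibitory in Fear-Recall and 36.9% ± 5.34 in Context-Only (SD, n = 5 each), where gates can set such shares. All 9 excitatory markers, Sv2b among them, had negative and all 11 inhibitory markers positive interaction values, and the part of the class mix was not tested. Of the genes named above, Jun had an interaction of 0.51 (SE 0.19), Sgk1 of 0.80 (SE 0.35), Cbln4 of 1.52 (SE 0.66) and Mir124a-1hg of -0.45 (SE 0.41), and none passed (edgeR adjusted p = 1 for each). A condition difference particular to reporter-read neurons was thus not shown for any gene by this test.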

How the data were processed

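Counts per gene and cell are the authors' deposited table of raw read counts (23355 rows), and per the submitters' processing notes Bowtie 0.12.2 and the builds mm8 and mm10 were used. How reads were assigned to genes, and whether by strand, is not stated in the labels or files, so overlapping genes cannot be told apart. The reporter row was left out of totals and tests. Cells were clustered with scanpy 1.11.5 (2000 variable genes, Leiden resolution 1.0) and classed by marker lists. No doublet caller was run, so libraries that hold material of further cells were not looked for. Raw counts were summed per animal over 10 or more cells and tested with edgeR 4.0.16 (TMM, filterByExpr with a minimum count of 10 and minimum total of 15), with mouse number as a block. The pairing was set beforehand by the shared numbers in the labels. Same-numbered animals of the 2 conditions deviated together (r 0.36 to 0.69 in 5 pairs over 5216 genes). Pairs of different number ran from -0.58 to 0.47, so the 2 ranges overlapped. CPM is TMM-scaled, and P-values were adjusted over all genes. DESeq2 1.42.0 and limma 3.58.1 served as alternatives. Named genes were, with none passing, the 8 of smallest p per direction in all neurons and the 6 in each other fit, at mean log2 CPM 5 or above and leaving out predicted genes, plus up to 4 per list, and some of these are not reported here. Gt(ROSA)26Sor was chosen after its values were seen. The cells, lists and rules were chosen with earlier results of these data known. Many cell names carry near their start the letter p or T with a number. No such name beginning was shared by Fear-Recall and Context-Only cells. The labels do not say what these tags mark, and for those cells condition cannot be told apart from them. Nothing states whether animals were housed or processed apart, so P-values speak for these animals only. Those of edgeR and DESeq2 measure the spread left after the block is removed. Those of the free permutation tests measure the spread between animals. Positions are from GENCODE vM21 (GRCm38) by symbol.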

Additional observations from a re-analysis of the deposited data

Results flagged for a closer look

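In 98 groups of 5 animals examined, 3 values lay far from the rest of their group, and chance alone marks about 1 in 20 such groups. All 3 were Context-Only levels of genes named above. Ufc1 in excitatory neurons reached 337 CPM in the highest animal, mouse 2, with the next at 163.01 CPM. Gng3 and Atp6v0b in inhibitory neurons reached 2033 and 2121 CPM in the same animal, with the next at 916 and 1105 CPM.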

How the results depend on the processing

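Counts of called genes were 0 with edgeR in all 4 planned comparisons and in the added one between classes, and stayed 0 without the replicate block, with RLE scaling, without the filter, at 10 or more reporter reads, in pos cells, after thinning, without the cluster of few genes, without each animal, with limma-trend (run for the 3 comparisons of conditions) and among genes of mean log2 CPM of at least 5, wherever each was run. DESeq2 called 0.338% of genes in all, 0.137% in excitatory and 0.68% in inhibitory neurons, 0.236% for reporter-read against reporter-free neurons and 0.264% between classes. The inhibitory share differed by -0.31 percentage points and by -2.13 to 3.11 with 1 animal left out, turning positive without Context-Only mouse 3 (1.29) or 5 (3.11) or Fear-Recall mouse 2 (0.22) or 4 (1.29). The immediate early score difference of 0.09 ran from -0.0061 (without Fear-Recall mouse 4) to 0.28 (without mouse 1), and was 0.342 in pos cells (mice 2 to 4 only, exact permutation p = 0.2, smallest possible 0.1). Exchange within mouse number only (the replicate block) gave p = 0.958 and 0.75 for differences of -0.31 and 0.09. Without the block, Mef2d (-0.082), mt-Nd5 (-0.0069) and mt-Nd2 (-0.065) changed sign. mt-Nd2 also did in pos cells (-0.029) and, in a leave-one-out range of -0.044 to 0.23, without Fear-Recall mouse 5 (-0.044). mt-Nd4 turned positive at 10 or more reporter reads (0.021) and without both mice numbered 2 (0.057), and with 1 animal left out ran from -0.11 to 0.056, above 0 without Context-Only mouse 2 (0.056) or Fear-Recall mouse 2 (0.047). Of 2581 alternatives over the named genes, 9 changed direction. Alternatives chosen after seeing the data were limma-trend, the level limit, the pair numbered 2 and the class comparison. With 4 residual degrees of freedom and 12 to 111 cells per inhibitory sum, small differences were not detectable.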

Other observations

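Gt(ROSA)26Sor, a non-coding transcript of the locus that carries the Ai14 reporter (chromosome 6, 113067428 to 113077333, GRCm38), was at 20.6, 11.2, 9.09, 8.34 and 9.64 CPM in reporter-read neurons of Fear-Recall mice 1 to 5 and at 13.6, 36.4, 24.6, 24.1 and 33.2 CPM in Context-Only mice 2, 3, 4, 5 and 5b. Mice 2 to 5 of Fear-Recall were below all Context-Only animals and mouse 1 was not. Because the cells were selected on reads of a transgene at this locus, the values are a description. Its interaction of condition with reporter status was 1.77 (SE 0.62) and was not called by edgeR. The fall was thus not larger in value in reporter-read than in reporter-free neurons.

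Microglia markers that DESeq2 called higher in Fear-Recall (P2ry12, C1qa and C1qc) had medians of 1.6, 0.714 and 0.195 CPM there and 0.0148, 0 and 0 CPM in Context-Only.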
